A study of Mus musculus with 2 samples.

Results

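Circular RNAs (circRNAs) listed without a host gene were examined in mouse intestinal cells. They are the entries whose host gene field holds only an asterisk in the authors' deposited lists. The library labelled ISC lists 300 such circRNAs of 18438, the library labelled non-ISC lists 654 of 18324, and 925 of the 31496 circRNAs in either list belong to them. Both libraries were made from the intestine of mice of the strain label Lgr5GFP-CreERT2, aged 2 months, which carry a reporter at Lgr5, the gene that marks stem cells at the base of intestinal crypts. Flow cytometry separated reporter-positive cells (Lgr5+), whose label is ISC for intestinal stem cells, from reporter-negative cells (Lgr5-), whose label is non-ISC. No treatment is given in the labels, how many animals were used is not given, and the negative fraction can hold any intestinal cell without the reporter. Each fraction had 1 library, so the differences below have no check against replicates and carry no p-value.

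CircRNAs are closed RNA molecules formed when the end of an exon is joined to the start of the same or an earlier exon. A read across that back-splice junction is the evidence for them, and it is what the junction count of the authors holds. Most circRNAs are made of exons of protein-coding genes by the splicing machinery, so a circRNA is usually named by its host gene. A read of this shape is not by itself proof of a circle, since near-identical copies of a sequence and short repeats can give reads that map in the same way. RNase R, which digests linear RNA, was used on these samples to enrich circles.

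The junctions that carry most of the description below are shown first. Each is 50 bases read from GENCODE M21 transcripts, on the plus strand of GRCm38, with the last 25 bases before the junction in lower case and the first 25 bases after it in capitals. The first group joins joining (J) segments of the T cell receptor beta locus to the start of its constant gene Trbc1, the second lies in the chromatin remodeller gene Srcap, the third in Malrd1, and the last joins 2 mitochondrial genes.
Trbj2-2 to Trbc1, chr6:41538218-41543007: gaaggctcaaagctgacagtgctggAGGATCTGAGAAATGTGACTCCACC
Trbj2-3 to Trbc1, chr6:41538218-41543271: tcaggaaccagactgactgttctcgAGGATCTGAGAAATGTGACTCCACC
Trbj2-4 to Trbc1, chr6:41538218-41543410: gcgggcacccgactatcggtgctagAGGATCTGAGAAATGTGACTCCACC
Trbj2-5 to Trbc1, chr6:41538218-41543501: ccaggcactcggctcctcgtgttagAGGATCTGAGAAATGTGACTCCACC
Trbj2-7 to Trbc1, chr6:41538218-41543856: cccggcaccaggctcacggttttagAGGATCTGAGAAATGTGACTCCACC
Srcap exon 9 to exon 4, chr7:127519581-127525905: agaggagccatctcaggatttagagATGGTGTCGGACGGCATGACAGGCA
Srcap exon 9 to exon 8, chr7:127525293-127525905: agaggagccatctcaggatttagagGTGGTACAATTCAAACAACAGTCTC
Srcap exon 7 to exon 4, chr7:127519581-127522129: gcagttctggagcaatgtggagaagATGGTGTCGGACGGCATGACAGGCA
Srcap, further downstream, chr7:127552259-127553294: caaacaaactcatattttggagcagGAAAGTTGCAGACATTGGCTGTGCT
Malrd1 exon 27 to exon 26, chr2:15925024-15931709: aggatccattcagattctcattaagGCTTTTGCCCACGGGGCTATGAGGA
Malrd1 exon 11 to exon 10, chr2:15633182-15636014: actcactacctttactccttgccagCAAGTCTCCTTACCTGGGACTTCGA
Malrd1 exon 12 to exon 5, chr2:15588248-15647100: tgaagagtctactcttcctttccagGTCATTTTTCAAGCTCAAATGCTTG
mt-Nd5 to mt-Nd4l, chrM:10027-12317: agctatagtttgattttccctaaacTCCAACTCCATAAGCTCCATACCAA

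The library labelled ISC held 156582 junction reads and the library labelled non-ISC held 76331. Ratios divide the share of junction reads in the library labelled ISC by that in the library labelled non-ISC, with exact conditional 95% intervals. These intervals cover counting error only, since reads amplified by PCR are not independent molecules, and they compare the libraries, not the cell types. Taking 3 counts as the limit that a count of 0 allows, the floor is 19.2 per 1000000 junction reads in the library labelled ISC, against 39.3 labelled non-ISC. The labels were checked with 3 marker lists of 8 genes, using the summed reads of the circRNAs these genes host. Of the T lymphocyte list (Satb1, Themis, Bcl11b, Ikzf1, Ets1, Camk4, Tcf7, Lef1), 8 genes had reads in the library labelled ISC, 7000 in all, and 4 genes in the library labelled non-ISC, 125 in all. Of the epithelial list, 1 gene had reads in the library labelled ISC, 2 in all, against 2916 reads on 8 genes in the library labelled non-ISC. Epcam, Cdh1 and Btnl1 were at 0 in the library labelled ISC. Single genes dominate these sums: Btnl1 held 2421 of the 2916 reads labelled non-ISC, and Satb1 held 4292 of the 7000 labelled ISC. The crypt stem cell list held Lgr5, Olfm4, Ascl2, Smoc2, Axin2, Prom1, Slc12a2 and Znrf3. Of these, 2 genes had 33 reads in the library labelled ISC and 7 genes had 170 in the library labelled non-ISC. The 2 were Znrf3, with 23 reads labelled ISC and 12 labelled non-ISC, and Axin2, with 10 labelled ISC and 29 labelled non-ISC. Lgr5 itself had 0 reads labelled ISC and 7 labelled non-ISC. The sums of all 3 lists go against the labels, though not every gene does, and the libraries are therefore called by their labels throughout.

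CircRNAs without a host gene made up a smaller share of the library labelled ISC, both by number and by junction reads. All 300 listed there had a junction read, 1.63% of the circRNAs with reads (exact binomial 95% interval 1.45 to 1.82), against 459 in the library labelled non-ISC, or 3.76% (3.43 to 4.11). The remaining 195 of its 654 entries had none. By reads, they held 1136 in the library labelled ISC, 0.725% (0.684 to 0.769) of its junction reads, and 1129 in the library labelled non-ISC, 1.48% (1.39 to 1.57). The ratio of these shares was 0.491 (0.451 to 0.533), while that of circRNAs with a host gene was 1.01 (0.999 to 1.02). This ratio turns with the denominator: scaled to the total read number behind each library's RPM it was 1.38. Restricted to the 24 members chosen for having reads in both libraries, it was 1.01 (0.822 to 1.23), an interval that holds 1. Over all members, the ratio was 0.136 by the count column. The library totals multiply each ratio here by the same 2.82, so the ratios per junction read are relative to that shift.

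Most were seen in very few reads. The median was 2 junction reads in the library labelled ISC, against 1 labelled non-ISC. It was 2 in both libraries for circRNAs with a host gene. The share with 1 or 2 reads was 73.7% (68.3 to 78.6) in the library labelled ISC, against 81.7% (77.9 to 85.1) labelled non-ISC. For circRNAs with a host gene the same share was 54.3% labelled ISC and 56.4% labelled non-ISC. At least 10 reads were reached by 19 circRNAs without a host gene in the library labelled ISC, against 15 labelled non-ISC. These few carried much of the signal, since the 10 most abundant held 34.6% of the reads without a host gene in the library labelled ISC, against 24.6% labelled non-ISC.

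Many of these circRNAs lay in annotated genes. Set against GENCODE M21, 195 of the 300 circRNAs labelled ISC overlapped a gene, 65.0% (59.3 to 70.4), and 207 of the 459 labelled non-ISC, 45.1% (40.5 to 49.8). A further 40 labelled ISC and 54 labelled non-ISC overlapped only a RefSeq gene, which left 65 labelled ISC (21.7%) and 198 labelled non-ISC (43.1%) outside the genes of both annotations. Together the 925 listed circRNAs overlapped 393 GENCODE genes, of which 83 are named as a host elsewhere in the files and 310 are not. Reads on circRNAs outside both annotations numbered 139 in the library labelled ISC, against 318 labelled non-ISC, a ratio of 0.213 (0.173 to 0.261), which lay below 1 by library totals too, at 0.600. Reads on those that overlap a GENCODE gene numbered 819 labelled ISC and 685 labelled non-ISC, a ratio of 0.583 (0.526 to 0.646) that turned to 1.64 by library totals.

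The ends of circRNAs made by splicing usually fall on annotated exon ends, and here most did not. Both ends fell exactly on exon ends of 1 transcript for 39 of 300 labelled ISC, 13% (9.41 to 17.3), and for 45 of 459 labelled non-ISC, 9.80% (7.24 to 12.9). With a host gene the shares were 73.5% labelled ISC and 77.7% labelled non-ISC. That contrast is not independent of how the members were chosen, since a host name is itself a match to annotation. Members outside GENCODE genes, 105 of 300 labelled ISC and 252 of 459 labelled non-ISC, had no exon end to match. Moving both ends by 1 nt left 0 matches without a host gene in either library. Among abundant members the share was higher. Of those with at least 10 reads, 8 of 19 labelled ISC (42.1%) and 12 of 15 labelled non-ISC (80.0%) had both ends on exon ends of 1 transcript. With a host gene and at least 10 reads the shares were higher as well, 92.9% labelled ISC and 94.0% labelled non-ISC. The members without a host gene behind these shares are few and mostly not the same in both libraries. Most of those labelled non-ISC are circles of the same few genes, Srcap, Malrd1 and 2900026A02Rik, so they are not separate loci.

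**Figure D1:**
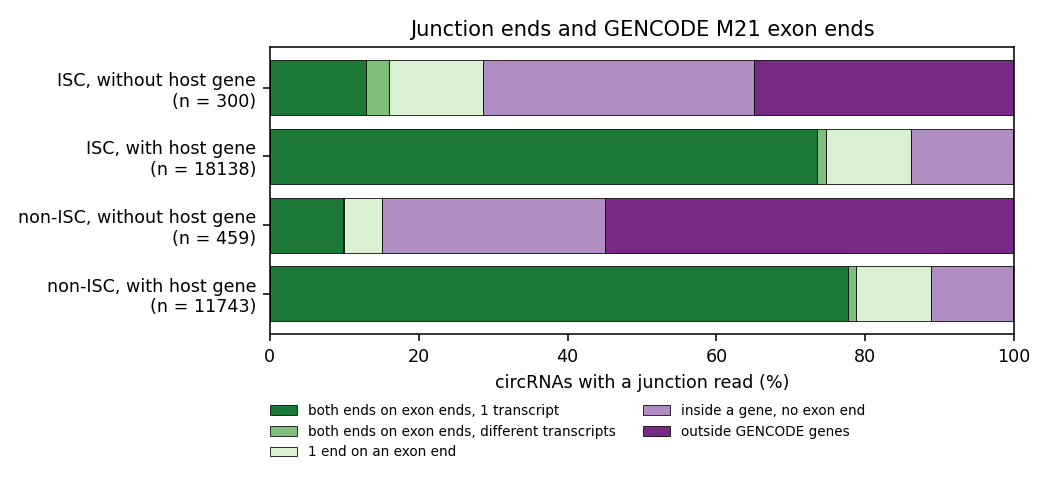
Stacked bars give the percentage of circRNAs with a junction read by where their 2 ends fall relative to GENCODE M21 exon ends, for circRNAs without and with a host gene in the libraries labelled ISC and non-ISC (1 library each). Both ends lie on exon ends of 1 transcript for 13% (ISC) and 9.80% (non-ISC) without a host gene, against 73.5% and 77.7% with one.

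They were also short. The median genomic span, from start to end with introns, was 1039.5 nt (quartiles 333.25 and 5215.75) in the library labelled ISC, against 851 nt (304 and 2620.5) labelled non-ISC. With a host gene the medians were 4974 nt labelled ISC and 5946 nt labelled non-ISC. Spans of at most 500 nt made up 37.0% (31.5 to 42.7) without a host gene in the library labelled ISC, against 38.1% (33.7 to 42.7) labelled non-ISC. With a host gene they made up 14.1% labelled ISC and 10.1% labelled non-ISC. The longest without a host gene were 86529 nt in the library labelled ISC, between the T cell receptor alpha segments Trav14-1 and Trav14-2 on chromosome 14 with 1 read, and 79735 nt in the library labelled non-ISC, in Malrd1 with 1 read. Weighted by reads, the order of the medians turned, with 1369 nt labelled ISC and 1934 nt labelled non-ISC.

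**Figure D2:**
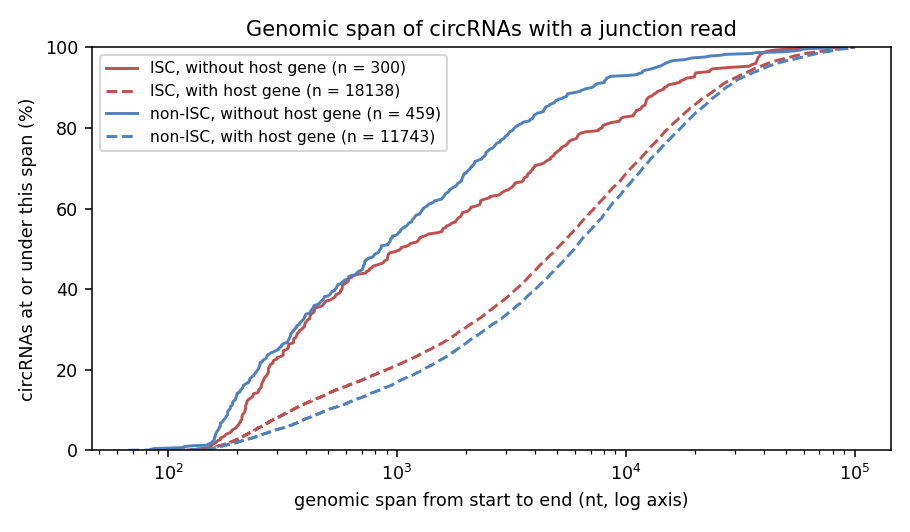
Cumulative percentage of circRNAs with a junction read (y axis) at or under a genomic span in nt (x axis, log scale); solid lines are circRNAs without a host gene and dashed lines those with one, in red for the library labelled ISC and in blue for the library labelled non-ISC. Both solid lines lie left of the dashed ones, with medians of 1039.5 nt (ISC) and 851 nt (non-ISC) against 4974 and 5946 nt.

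The libraries had few of these circRNAs in common. Of 735 with a read in either library, 24 had reads in both, 3.27% (2.10 to 4.82). The 24 are 8% of those in the library labelled ISC and 5.23% of those in the library labelled non-ISC. For circRNAs with a host gene, 17.0% had reads in both. Among those with at least 10 reads summed over the libraries, 10 of 31 without a host gene were shared (32.3%, 16.7 to 51.4), against 2532 of 3628 with one (69.8%, 68.3 to 71.3). Of the 24, 11 had both ends on exon ends of 1 transcript, and 5 of the 11 lie in Srcap. The shared circRNAs held 299 reads, 26.3%, in the library labelled ISC, against 145 reads, 12.8%, labelled non-ISC.

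A circRNA was called when it had 10 or more reads summed over the libraries, shares that differed 2-fold or more and an interval that left out 1. By this rule 14 of the 31 testable circRNAs were higher in the library labelled ISC, where 32.4% of all 3659 testable circRNAs were. The same rule gave 11 of 31 lower, where 23.0% of all were. In both directions together 25 were called, 80.6%, against 55.4% of all. Of the 14 higher, 12 had no reads labelled non-ISC, and of the 11 lower, 9 had none in the library labelled ISC. Over all testable circRNAs, 789 of the 1187 higher had no reads labelled non-ISC. Of the 841 lower, 328 had none labelled ISC. A missing entry was counted as 0 for this rule, but it need not mean 0 reads, so a circRNA missing from a library is given below as reads, with no fold.

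Gene classes divided the reads of the libraries unequally. Long non-coding genes held 71 of the 382 circRNAs that overlap a GENCODE gene, with 243 reads labelled ISC and 52 labelled non-ISC, a ratio of 2.28 (1.68 to 3.14). Without the most abundant of them, in Gm49169 and left out after its value was seen, the ratio was 1.40 (1.01 to 1.95). Antigen receptor genes held 12, with 85 reads labelled ISC and 0 labelled non-ISC. Mitochondrial genes held 30, with 1 read labelled ISC and 84 labelled non-ISC. Protein-coding genes of the nucleus held 210, with 425 reads labelled ISC and 512 labelled non-ISC, a ratio of 0.405 (0.355 to 0.461) that turned to 1.14 by library totals. Pseudogenes held 50, with 57 reads labelled ISC and 23 labelled non-ISC, a ratio of 1.21 (0.733 to 2.05).

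**Figure D3:**
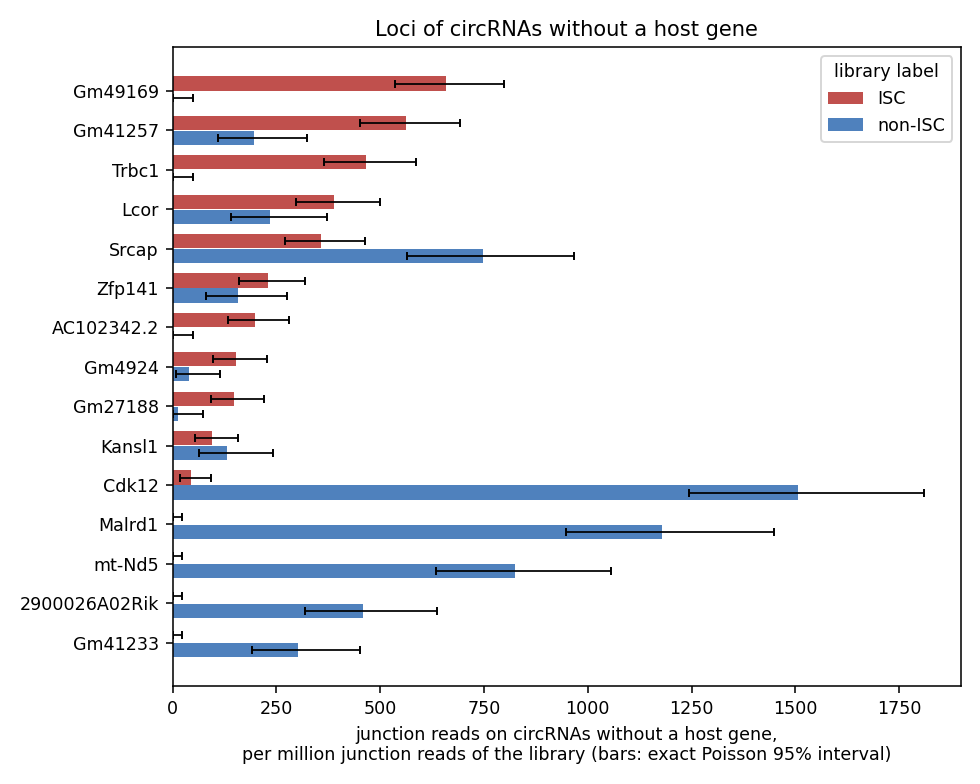
Junction reads on circRNAs without a host gene, summed by overlapping gene and given per 1000000 junction reads of the library (x axis), for the library labelled ISC (red, upper bar) and the library labelled non-ISC (blue, lower bar), with exact Poisson 95% intervals for counting error and 1 library per label. Gm49169 and Trbc1 have reads in the library labelled ISC alone and Malrd1, mt-Nd5, 2900026A02Rik and Gm41233 in the library labelled non-ISC alone, while Lcor, Srcap, Zfp141 and Kansl1 have reads in both.

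Antigen receptor genes had junction reads in the library labelled ISC alone. The library labelled non-ISC lists 1 entry over immunoglobulin heavy chain segments, chr12:113772289-113838832, with 0 junction reads and a deposited count of 70. T cells cut and rejoin the DNA of these loci, and each functional T cell receptor beta chain is made from a variable, a diversity and a J segment that is spliced to exon 1 of Trbc1 or Trbc2. The beta locus lies on chromosome 6 in the order J1 segments, Trbc1, J2 segments, Trbc2. In 5 listed circRNAs the start of Trbc1 exon 1 at 41538218 was joined to the exact end of a J2 segment that lies downstream of it. Trbj2-5 and Trbj2-7 had 18 junction reads each, Trbj2-3 had 15, Trbj2-2 had 9 and Trbj2-4 had 6, all in the library labelled ISC, and none of the 5 is listed in the library labelled non-ISC. Trbj2-1 and the pseudogene Trbj2-6 had none. The deposited count for Trbj2-7 was 305, far above its 18 junction reads.

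As the sequences above show, all 5 junctions read into the same 25 bases, AGGATCTGAGAAATGTGACTCCACC. Trbc1 exon 1 and Trbc2 exon 1, at chr6:41546730-41547104, both start with them. The exons are 375 nt each and differ at 1 base, the base at position 260 counted from the exon start, so their first 150 bases, a whole read length, are identical. A J2 segment spliced to Trbc2 runs in the ordinary linear order, and by sequence such a read cannot be told apart from a back-splice to Trbc1. Over the Trbc1 gene, 7 circRNAs held 73 reads in the library labelled ISC, 466 per 1000000 junction reads, against 0 labelled non-ISC. Of the 7, 1 lay within Trbc1, from exon 2 to exon 3 (chr6:41539114-41539335), with 6 reads, and 1 ended at 41542680, outside the J2 segments, with 1 read.

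**Figure D4:**
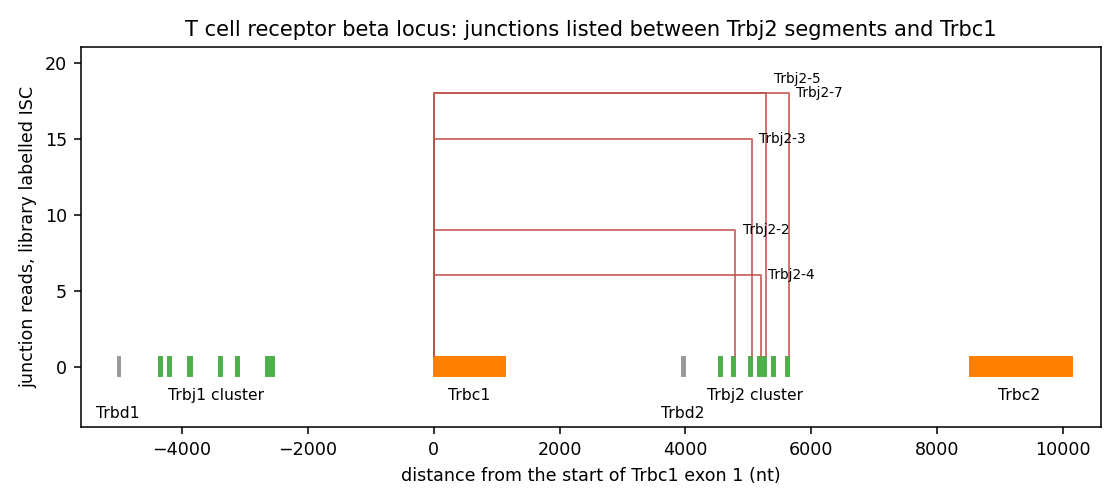
Map of the T cell receptor beta constant region, with distance in nt from the start of Trbc1 exon 1 (x axis) and junction reads in the library labelled ISC (y axis, 1 library); each red bracket is a listed circRNA that joins the start of Trbc1 exon 1 to the end of a J2 segment. Brackets reach 18 reads for Trbj2-5 and Trbj2-7, 15 for Trbj2-3, 9 for Trbj2-2 and 6 for Trbj2-4, and the library labelled non-ISC has none.

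Other antigen receptor junctions were sparse, and they are named here after their values were seen. In the T cell receptor delta region on chromosome 14, 8 reads lay at Trdv2-1, 7 of them at chr14:53945980-53946736 and 1 at chr14:53945798-53946713, and 2 at Trdc (chr14:54139221-54145266), for which the deposited count was 581. In the immunoglobulin heavy chain locus, 1 read joined Ighv5-1 and Ighv5-2. With the Trav14-1 and Trav14-2 junction above and the 73 reads over Trbc1, these make up the 85. Each of these was in the library labelled ISC alone, where the T lymphocyte list had 7000 host gene reads against 125 in the library labelled non-ISC. The part of that difference in these junctions was not tested.

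Non-coding genes gave several of the most abundant circRNAs. Gm49169, a long intergenic non-coding gene on chromosome 15, gave the most abundant one in the library labelled ISC, chr15:95736513-95737296 with 94 reads, and it is not listed in the library labelled non-ISC. Over the gene, 4 circRNAs held 103 reads labelled ISC and 0 labelled non-ISC. Gm41257, a non-coding gene annotated in RefSeq and not in GENCODE M21, gave chr15:5322244-5323612 with 80 reads labelled ISC and 15 labelled non-ISC, a ratio of 2.60 (1.49 to 4.86) that passed the rule. Its junction was the most abundant of those read in both libraries.

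AC102342.2 on chromosome 18 gave chr18:15213223-15214136 with 27 reads, in the library labelled ISC alone. At Gm27188, chr9:72230266-72233329 had 18 reads, also in the library labelled ISC alone. Its start falls on an exon start of Gm27188, while most of its span lies past the GENCODE gene end at 72230306. The RefSeq gene LOC115487730 gave the shortest with at least 10 reads, 287 nt at chr11:65163427-65163713, with 10 reads in the library labelled ISC and none in the library labelled non-ISC. In the other direction, chr14:102565486-102570374 overlaps the RefSeq gene Gm41233 and had no entry labelled ISC and 18 reads labelled non-ISC. Both its ends lie outside that gene, which runs from 102565711 to 102570306. RefSeq genes were matched by overlap alone, with no check of strand or exons. Sequences of these non-coding circRNAs are not shown.

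Srcap, which encodes the ATPase that loads the histone variant H2A.Z into chromatin, was the gene with most circRNAs shared between the libraries. It is named as a host for no circRNA in either list, although 9 circRNAs without a host gene lie in it on chromosome 7. A second GENCODE gene, Gm42715, overlaps it on the same strand and shares many of its exon ends, so reads cannot be divided between the 2 genes. In each library 7 of the 9 had reads, 5 of them in both, with 56 reads labelled ISC and 57 labelled non-ISC. The ratio of shares was 0.479 (0.325 to 0.705), and by library totals it turned to 1.35.

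The 5 most abundant Srcap circles come first. The circle of exons 4 to 9 (chr7:127519581-127525905, 1020 nt when spliced) had 10 reads labelled ISC and 19 labelled non-ISC, a ratio of 0.257 (0.107 to 0.580). The circle of exons 4 to 7 (chr7:127519581-127522129, 522 nt) had 5 reads labelled ISC and 10 labelled non-ISC, a ratio of 0.244 (0.0654 to 0.783), and both were lower in the library labelled ISC by the rule. By library totals their ratios were 0.723 and 0.687, less than a 2-fold difference, so neither would be called. The smaller circle of exons 8 and 9 (chr7:127525293-127525905, 498 nt) had 14 reads in each library, a ratio of 0.487 (0.215 to 1.10) that does not pass. A circle of exons 6 to 9 (chr7:127521476-127525905) had 0 reads labelled ISC, with no entry, and 10 labelled non-ISC. Nearer the end of the gene, chr7:127552259-127553294, with 4 exons of another transcript and 602 nt, had 19 reads labelled ISC and no entry labelled non-ISC. Of the remaining 4, the circle of exons 7 to 9 (chr7:127521989-127525905) had 5 reads labelled ISC and 1 labelled non-ISC, and that of exons 2 to 9 (chr7:127514165-127525905) had 2 in each library. The circle of exons 14 and 15 (chr7:127530894-127531471) had 1 read labelled ISC and 0 labelled non-ISC, and chr7:127559487-127559824, with no end on an exon end, had 0 labelled ISC and 1 labelled non-ISC. Circles that end at exon 9 share the bases before the junction, as the first 2 Srcap sequences above show.

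Malrd1, also called Diet1, encodes a large secreted protein of the small intestine that in mice is known to affect the hormone FGF15 and bile acid synthesis. It too is named as a host for no circRNA, and it held the largest group of circRNAs without a host gene in 1 gene. None is listed in the library labelled ISC, against 22 in the library labelled non-ISC, of which 18 had 90 reads in all, or 1179 per 1000000 junction reads. Of the 18, 14 had both ends on exon ends of 1 transcript, 3 had 1 end on an exon end and 1 had none. Their spans ran from 150 to 79735 nt with a median of 21226.5 nt.

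The most abundant Malrd1 circle joined exon 27 to exon 26 (chr2:15925024-15931709, 404 nt when spliced), with 16 reads labelled non-ISC. Exons 10 and 11 (chr2:15633182-15636014, 245 nt) had 13 reads, and exons 5 to 12 (chr2:15588248-15647100, 1131 nt over a span of 58853 nt) had 11 reads. This was the longest span among circRNAs with at least 10 reads in a library. Exon numbers are those of a transcript of 39 exons. The other 15 had 7 reads or fewer each. Beside these values stand the epithelial marker list, with 2 host gene reads labelled ISC and 2916 labelled non-ISC, and its part in the difference was not tested.

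Cdk12, a kinase that phosphorylates RNA polymerase II during transcription, gave the most abundant circRNA without a host gene in the library labelled non-ISC. It spans exons 5 to 7 (chr11:98263470-98267858, 322 nt when spliced) and had no entry labelled ISC against 115 reads labelled non-ISC. The library labelled ISC has an entry without a host gene with the same end and a start a few bases on, chr11:98263474-98267858, with 5 reads, which has none in the library labelled non-ISC. Cdk12 is named as the host of 8 other circRNAs, with 16 reads labelled ISC and 5 labelled non-ISC. Without the 115 reads, the share of junction reads on circRNAs without a host gene in the library labelled non-ISC was 1.33%.

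Further protein-coding genes gave circles read in both libraries. Lcor, a corepressor of nuclear receptors, gave a circle of exons 3 to 5 (chr19:41528021-41546007, 279 nt when spliced) with 61 reads labelled ISC and 16 labelled non-ISC, a ratio of 1.86 (1.06 to 3.45), under the 2-fold limit. Other circRNAs that do name Lcor as host had 15 reads labelled ISC and 27 labelled non-ISC. Zfp141, a zinc finger gene, gave exons 3 to 5 (chr7:42488470-42490276) with 36 reads labelled ISC and 11 labelled non-ISC, a ratio of 1.60 (0.794 to 3.47). A pseudogene on the other strand, Gm19246, lies wholly within that span, and both junction ends fall on Zfp141 exon ends.

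Kansl1, a subunit of the NSL histone acetyltransferase complex, gave chr11:104456947-104459039, with neither end on an exon end, with 14 reads labelled ISC and 4 labelled non-ISC, a ratio of 1.71 (0.536 to 7.12). Over the gene, 4 circRNAs without a host gene held 15 reads labelled ISC and 10 labelled non-ISC. Their ratio of 0.731 (0.307 to 1.82) lay on the other side of 1, and by library totals it turned to 2.06. Kansl1 is also a named host elsewhere, with 175 reads labelled ISC and 114 labelled non-ISC. B3gnt2, a glycosyltransferase that extends lactosamine chains, gave chr11:22799378-22801102 with 9 reads in each library. Its ratio of shares was 0.487 (0.171 to 1.39), and by library totals it turned to 1.37. For Zfp141, Kansl1 and B3gnt2 the interval holds 1, while for Lcor it does not.

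Among less characterised genes, Gm4924 gave a circle of exons 2 to 4 (chr10:82368571-82383844) with 22 reads labelled ISC and 3 labelled non-ISC, a ratio of 3.57 (1.07 to 18.7), higher by the rule. The gene 2610021A01Rik gave chr7:41611676-41613251 with 8 reads in each library, a ratio of 0.487 (0.159 to 1.49) that turned to 1.37 by library totals. The gene 2900026A02Rik gave 2 circles that share an end, chr5:113175205-113193907 and chr5:113182054-113193907, neither of them listed in the library labelled ISC, with 22 and 11 reads in that order in the library labelled non-ISC. Rnf213, a very large ubiquitin ligase gene named here after its values were seen, held 13 listed circRNAs with 8 reads labelled ISC and 13 labelled non-ISC, none with 10 reads.

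The mitochondrial chromosome stood apart. Mitochondrial DNA is a small circle whose genes have no introns and are transcribed as long precursors that are cut at the transfer RNAs, so back-splicing of the nuclear kind is not known there. The library labelled ISC had 1 mitochondrial circRNA without a host gene, chrM:5765-6367 in mt-Co1, with 1 junction read and a deposited count of 9856. The library labelled non-ISC had 29, with 84 reads. The ratio of shares was 0.00580 (0.000145 to 0.0332), and 0.0163 by library totals. A further 25 mitochondrial circRNAs carry a host name in the files, with 0 reads labelled ISC and 48 labelled non-ISC.

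In the library labelled non-ISC the mitochondrial junctions lay mainly in 1 stretch. Of the 29, 19 lay from mt-Nd4l to mt-Nd5 (chrM:9877-13565), genes of subunits of respiratory complex I, with 69 of the 84 reads, 82.1%. Over all 29, spans over the chromosome ran from 115 to 3370 nt with a median of 343 nt, and 14 of the 29 had 1 read. The most abundant was chrM:10027-12317, which joins mt-Nd5 to mt-Nd4l and had 30 reads. It was followed by chrM:12711-13109 in mt-Nd5 with 8 reads, chrM:14330-14479 in mt-Cytb with 5, chrM:11849-12136 in mt-Nd5 with 4 and chrM:11442-12349 with 3.

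The 2 ends of the mitochondrial junctions tended to hold the same short run of bases. The sequences around the start and end of the 2 most abundant ones are shown because each pair repeats 10 bases, given in capitals.
chrM:10027-12317, around the start: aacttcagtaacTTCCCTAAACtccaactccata
chrM:10027-12317, around the end: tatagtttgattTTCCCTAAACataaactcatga
chrM:12711-13109, around the start: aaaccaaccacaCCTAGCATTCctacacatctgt
chrM:12711-13109, around the end: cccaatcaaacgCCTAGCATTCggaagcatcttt
Within such a repeat the exact junction cannot be placed. Over the 28 of 30 mitochondrial circRNAs whose flanks could be read from transcripts, the median was 5.5 shared bases, and 21 shared at least 4, 75% (55.1 to 89.3). When the end was moved 20 nt inward, 0 of 28 shared 4 (0 to 12.3). Mitochondrial circRNAs that do have a host name were much the same, with a median of 6 shared bases over 22.

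The measure was also taken for nuclear circRNAs without a host gene that lie in a gene with no end on an exon end. Both flanks could be read for only 74 of 213, 34.7%, so the values cover those 74 alone. Of these, 13 shared at least 4 bases, 17.6% (9.70 to 28.2), against 2.70% after the same shift. For such nuclear circRNAs with a host gene the shares were 23.5% and 2.14%, over 1493 of 3715.

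**Figure D5:**
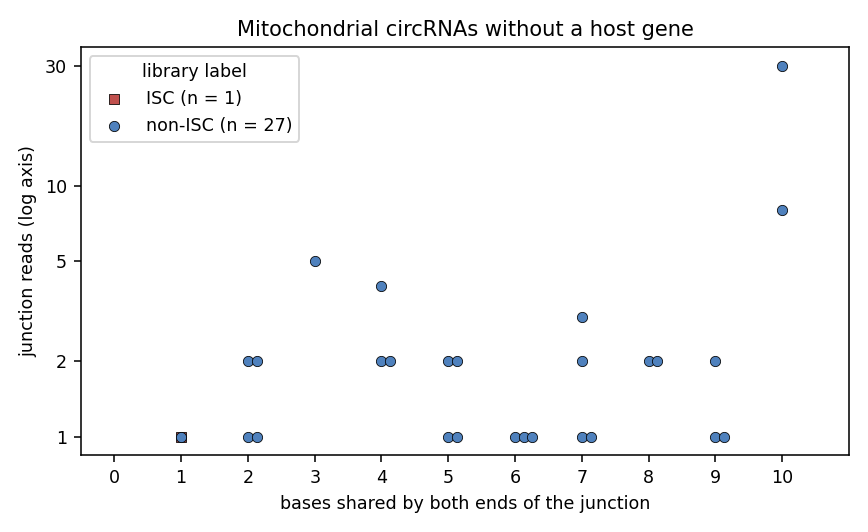
Mitochondrial circRNAs without a host gene, with the number of bases shared by the 2 ends of the junction (x axis) and junction reads (y axis, log scale); blue circles are the library labelled non-ISC (27 circRNAs) and the red square the library labelled ISC (1 circRNA, behind a circle at 1 shared base and 1 read). Both circRNAs with 10 shared bases stand high, with 30 and 8 reads, while those with 9 have 1 or 2 reads and the circRNA with 3 has 5.

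Small abundant RNAs appeared in the count column more than at junctions. At Rn7s2, a copy of the 7SL RNA of the signal recognition particle, chr12:69361259-69361437 had 8 junction reads and a deposited count of 4304 in the library labelled non-ISC. At Rn7sk, the RNA that holds back a transcription elongation factor, chr9:78175323-78175439 had 1 junction read and a count of 1022. None of these is listed in the library labelled ISC. The count equalled the junction reads for 42.0% of circRNAs without a host gene in the library labelled ISC, against 25.7% labelled non-ISC. With a host gene the shares were 42.3% labelled ISC and 50.9% labelled non-ISC. The count column was therefore not used to compare levels.

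Of the circRNAs with reads outside both annotations, 258 lay on chromosomes with an annotated gene to measure from, at a median distance of 8070.5 nt from the nearest GENCODE gene (quartiles 2794.25 and 21344.5). For 95 of them, 36.8%, the gene lay within 5000 nt. They had a median span of 721.5 nt, 223 of the 258 had 1 or 2 reads, and the most abundant had 11. By chromosome, the share of circRNAs with reads that lack a host gene ran in the library labelled ISC from 0.437% on chromosome 2 to 3.64% on chromosome X among autosomes and X. In the library labelled non-ISC it ran from 0.891% on chromosome 16 to 5.42% on chromosome 7, with 5.20% on chromosome 2, where Malrd1 lies.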

How the data were processed

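Per the labels' protocols, ribosomal RNA and then linear RNA (by RNase R) were removed from total RNA of sorted cells, and fragments near 200 bp were read for 150 nt from both ends. Trimmomatic 0.36, FastQC and the build mm9 are named in the submitters' processing notes, while no source used here gives the aligner, the circRNA caller or the annotation behind the host names. Per the file headers, the deposited tables hold 3 columns per circRNA, named count, RPM and junction. The deposited count is a whole number whose assignment is not stated, the deposited RPM is that count per 1000000 reads of a library total, and the junction count was the measure used here. Implied library totals are 52636694 (ISC) and 72271995 (non-ISC).

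The host field, chromosome, start and end were read from the deposited tables. Ends match GENCODE M21 exon ends on GRCm38 exactly, so the build is taken to be GRCm38 (1-based), not the mm9 of the notes. No genome sequence was used, so splice-site dinucleotides were not analysed here, and exon ends took their place. Gene overlap used GENCODE M21 and the RefSeq gene table of GRCm38.p6. Ratios used exact conditional and shares exact binomial (Clopper-Pearson) 95% intervals, with Python 3.11.15 and SciPy 1.17.1. The call rule was run on simulated data that held counting error only, which cannot test it against variation between libraries. Intervals may be too narrow where both mates of a fragment cross a junction.

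CircRNAs named are the 10 with most reads per library, those with at least 10 reads over both libraries and reads in both, the 5 called with most reads per direction, the mitochondrial ones (top 5 labelled non-ISC), and the 3 shortest and 3 longest with at least 10 reads. Other names are said to be chosen after their values were seen, and the remaining Trbc1 and Srcap junctions, the zero-junction entries and the locus sums were as well. Members and lists were chosen with earlier results of these data known. Alternatives covered read minimums, scaling, annotation and left-out loci.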

Additional observations from a re-analysis of the deposited data

Results flagged for a closer look

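The entries without a host gene in the library labelled non-ISC that have 0 junction reads still carry 17223 reads in the deposited count column. There are 195 such entries, with a median count of 12 and a highest of 4275, and the library labelled ISC has no entry with 0 junction reads. This signal lies outside the junction reads that the comparisons use. Entries at the 7SL RNA genes Rn7s1 (4118) and Rn7s2 (4275) make up 2 of them, and 4 entries in Malrd1 have counts between 144 and 583. CircRNAs with a host gene hold zero-junction entries at a like rate in the library labelled non-ISC, where 29.8% of entries without a host gene and 33.5% of those with one have 0 junction reads.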

How the results depend on the processing

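Of 62 alternatives to 16 results, 35 left the result the same, 25 moved it and 2 turned it, and the cause was not tested. A share or median was taken as the same when it lay within the interval of the main result. A count was taken as the same when it differed little from the main count. Only for the ratio did the same mean the same side of 1, and both turned results are of this ratio. The ratio of summed reads, 0.491, was 1.38 when scaled to library totals and 1.01 (0.822 to 1.23, which holds 1) over shared circRNAs. It was 0.604 with scaling by the median ratio of shared circRNAs, 0.529 without mitochondrial circRNAs and 0.136 by the count column. By library totals 17 were higher and 9 lower, and the calls of 2 Srcap circles ended. At a minimum of 2 and of 10 junction reads, the share of circRNAs was 1.33% and 0.744% (ISC), and 2.42% and 1.06% (non-ISC). The share of reads was 0.192% by the count column and 0.666% without the most abundant member (ISC), and 1.37% without mitochondrial circRNAs and 1.33% without the most abundant member (non-ISC). The median span weighted by reads was 1369 nt (ISC) and 1934 nt (non-ISC). Mitochondrial circRNAs with at least 2 reads numbered 0 (ISC) and 15 (non-ISC). Overlap with a gene was 34.7% (ISC) and 33.1% (non-ISC) for protein-coding genes, 78.3% and 56.9% for GENCODE or RefSeq, an alternative chosen after seeing the data, and 51.2% (non-ISC) at 2 reads. Both ends on exon ends, also added after seeing the data, gave 16.3% at 2 reads (non-ISC) and 0 in both libraries after a shift of 1 nt. Numbers higher in ISC were 4 at a minimum of 20 reads, 4 with reads halved and 2 over shared circRNAs, and numbers lower were 30 at a minimum of 5 reads, 4 at 20 and 2 over shared circRNAs. The planned splice-site dinucleotide result was not run, since no genome was used. No paired analysis was possible because each group has 1 library, and no replicate could be left out.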
